A study of Mus musculus with 536 samples.

Results

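Cd79a, Cd79b, Ms4a1, Cd22 and Cd72, a group of mouse genes of the B cell antigen receptor and the B cell surface, were described in the peripheral blood of C57BL/6 mice after total body irradiation. The members were a given list of 5 of the 12393 genes that the array table names by 1 symbol, and where a gene had several probe sets, the one brightest on average across the 536 arrays was read. Mice of 10 to 12 weeks were exposed to 0 to 1050 cGy of gamma rays from a caesium source, blood was taken by terminal cardiac puncture, and globin-reduced RNA was hybridised to Affymetrix Mouse 430A 2.0 arrays. All values are log2 levels on the array scale, so a difference of 1 is a factor of 2 on that scale.

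The arrays fall into 4 sets, which were analysed apart. In the dose-time set, 240 mice of unstated sex were left at 0 cGy or received 100, 200 or 300 cGy, or 450, 600, 800 or 1050 cGy, and gave blood at 6, 24, 48, 72, 120 or 168 hr, with 5 mice in each of the 48 groups. In the sex and treatment set, 226 mice (111 female and 115 male, 3 to 5 per group) received GCSF, a growth factor of neutrophil production, LPS, a bacterial cell wall component, or no agent, at 0, 200, 300 or 600 cGy, with blood at 6 or 24 hr. In the small treatment set, 50 mice of unstated sex had GCSF, LPS or no agent at 0, 150 or 600 cGy, with blood at 6 hr and 5 to 6 mice per group. In the small 7 day set, 10 mice received 150 cGy and gave blood at 168 hr, against 3 mice at 0 cGy at 168 hr, with 3 further mice at 0 cGy at 6 hr and 2 at 24 hr. Doses and timing of GCSF and LPS are not in the labels. Each mouse is a separate animal that was bled once, so the time courses compare different mice.

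CD79A and CD79B form the signalling heterodimer that sits beside membrane immunoglobulin in the B cell antigen receptor. Antigen binding leads to phosphorylation of their cytoplasmic tails by Lyn and recruitment of the kinase Syk, which passes the signal to Blnk, Btk and Plcg2. MS4A1, better known as CD20, is a multi-pass membrane protein of B cells linked to calcium entry and the target of therapeutic antibodies. CD22, a lectin for sialylated glycans, and CD72, a receptor for the semaphorin Sema4d, are inhibitory co-receptors that recruit the phosphatase Ptpn6. Circulating B cells are known to be among the blood cells most sensitive to ionising radiation.

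The promoters of the members that the RefSeq table holds are shown because the members moved together in most comparisons. 3 of the 5 members matched, and the 250 bases before the start are printed 5′ to 3′ on the gene's strand, build GRCm38.p6. The start is that of the transcript the table takes; for Cd22 and Cd72 it lies inside the annotated gene, past the gene's outermost start, so those windows are not the sequence before the whole gene. They lie at chr7:24897247-24897496, plus strand, for Cd79a, at chr7:30879029-30879278, minus strand, for Cd22, and at chr4:43454627-43454876, minus strand, for Cd72. Capitals mark matches, on either strand, to 4 motifs of B cell transcription factors: CCCNNGGG for the EBF core, ATGCAAAT for the octamer, AGGAAGT for an Ets core and CAGGTG for an E2A E-box.
Cd79a: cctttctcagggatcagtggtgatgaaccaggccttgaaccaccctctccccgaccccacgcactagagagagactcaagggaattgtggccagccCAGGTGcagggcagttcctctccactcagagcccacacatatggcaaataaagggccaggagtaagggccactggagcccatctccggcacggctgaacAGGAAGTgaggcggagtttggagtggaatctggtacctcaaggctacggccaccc
Cd22: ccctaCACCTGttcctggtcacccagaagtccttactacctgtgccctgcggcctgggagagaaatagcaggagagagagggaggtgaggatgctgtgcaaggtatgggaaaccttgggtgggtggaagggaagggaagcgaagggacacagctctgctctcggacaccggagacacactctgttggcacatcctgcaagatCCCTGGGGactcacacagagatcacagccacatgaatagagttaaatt
Cd72: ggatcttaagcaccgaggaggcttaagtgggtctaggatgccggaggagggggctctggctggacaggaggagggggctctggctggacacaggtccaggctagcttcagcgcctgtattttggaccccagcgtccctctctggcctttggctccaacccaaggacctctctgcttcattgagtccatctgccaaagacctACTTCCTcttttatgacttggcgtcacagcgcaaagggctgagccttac
Cd79a held the Ets core 55 bases and the E-box 154 bases before its start. In Cd22 the EBF core began 48 bases before the start, and the E-box lay on the opposite strand at 245 bases. Cd72 held the Ets core on the opposite strand at 49 bases. The octamer was not in these 3 windows. Among 32851 promoter windows of the same length, 17.2% held the E-box, 11.8% the EBF core, 7.69% the Ets core and 1.6% the octamer, and none of the motifs overlapped another in the windows shown. A match is a description of the letters only.

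In unirradiated mice all 5 transcripts were well expressed at every time. In the dose-time set the 0 cGy means at 6 hr were 10.27 ± 0.38 for Cd79a, 10.50 ± 0.15 for Cd79b, 11.80 ± 0.16 for Ms4a1, 10.66 ± 0.16 for Cd22 and 8.73 ± 0.28 for Cd72 (SD, n = 5), and the limit for a dim probe, the 30th percentile of the means of all genes, was 5.27. The levels of different genes come from different probes and are not set against each other. B cell transcription factors stood beside them, with a mean over 9 genes of 7.88 in the median 0 cGy mouse at 6 hr. The unirradiated level was not the same at all times. Cd79a was lowest at 48 hr, 9.89 ± 0.41, and highest at 120 hr, 11.26 ± 0.20, and for each of the 5 genes the 48 hr mean was the lowest and the 120 hr mean the highest. An F test over the 6 times (limma, Benjamini-Hochberg adjusted over all genes) called 4 of the 5 members, with adjusted p = 0.000279 for Cd22, 0.000345 for Cd72, 0.0274 for Cd79a and 0.0452 for Cd79b, against 0.308 for Ms4a1. It called 50.3% of all genes, so irradiated mice were compared with the 0 cGy mice of their own time.

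Alb, the albumin transcript of hepatocytes, was taken as high at 10 or more. In the dose-time set it was high on all arrays at 450 cGy and above at 120 and 168 hr and on 0 of the 5 arrays at 0 cGy at those times, and at 24, 48 and 72 hr it was high on 0 to 5 arrays per dose with no order by dose. Each run code of the dose-time set, as read from the sample labels, holds 1 mouse of every group of its time, so leaving out a run leaves out 1 mouse of every group. The p-values set a difference of group means against the spread between mice, pooled over all groups of a set. Overlap of groups and signs within runs were read for the members only. No share over all genes stands beside them, so they are descriptions.

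At 6 hr every member had fallen at the lowest dose and lay lower still at the highest. All 5 had a negative slope of level on dose (limma, adjusted p under 0.05), where 18.5% of all genes did. In whole blood, fewer B cells and less of the transcript per B cell cannot be told apart.

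Cd79a, a chain of the signalling dimer, was at 7.60, 8.18, 8.44, 8.54 and 8.78 in the mice given 100 cGy and at 6.41, 6.55, 7.01, 7.08 and 7.25 in those given 1050 cGy, against 9.70, 10.21, 10.28, 10.49 and 10.70 in the 0 cGy mice. The 3 groups did not overlap. Its difference from 0 cGy was -1.96 ± 0.42 at 100 cGy and -3.41 ± 0.42 at 1050 cGy (SE), and its slope was -0.26 ± 0.03 per 100 cGy (adjusted p = 1.93e-12). Most of the fall lay below 300 cGy: the group means were 8.31, 7.79, 7.15, 7.01, 6.90, 6.58 and 6.86 from 100 to 1050 cGy, and from 450 cGy upwards no step between neighbouring doses exceeded the larger SD of the 2 groups.

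Cd79b, the partner chain, fell as well. Its levels were 7.42, 7.96, 8.54, 8.59 and 8.80 at 100 cGy and 4.61, 4.79, 5.41, 5.64 and 5.84 at 1050 cGy, against 10.26, 10.46, 10.54, 10.59 and 10.63 at 0 cGy. Again no value of 1 group lay within another. The differences from 0 cGy were -2.24 ± 0.50 and -5.24 ± 0.50, and the slope was -0.43 ± 0.04 per 100 cGy (adjusted p = 1.75e-21). At 600 cGy and above its means, 5.58, 5.38 and 5.26, were close to the dim limit. Whether a further fall could be measured there was not tested.

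Ms4a1 was at 8.60, 9.78, 10.05, 10.38 and 10.45 at 100 cGy, against 11.64, 11.68, 11.77, 11.90 and 12.01 at 0 cGy. At 1050 cGy 4 mice had 6.00, 6.01, 6.07 and 6.38 and the fifth had 8.06, below every mouse at 100 cGy. The difference at 1050 cGy was -5.29 ± 0.49 and the slope -0.43 ± 0.04 per 100 cGy (adjusted p = 2.38e-22). The other probe set of the gene gave -6.07 ± 0.59 at 1050 cGy.

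The inhibitory co-receptors followed the same course. Cd22 was at 7.81, 8.29, 8.64, 8.66 and 8.78 at 100 cGy and 6.76, 6.91, 7.01, 7.08 and 7.30 at 1050 cGy, against 10.47, 10.52, 10.71, 10.79 and 10.82 at 0 cGy. Its difference at 1050 cGy was -3.65 ± 0.32, and its other probe set gave -2.91 ± 0.30. Cd72 was at 6.27, 6.64, 6.84, 7.13 and 7.35 at 100 cGy and 4.98, 5.10, 5.12, 5.58 and 5.86 at 1050 cGy, against 8.38, 8.60, 8.69, 8.84 and 9.13 at 0 cGy. Its difference at 1050 cGy was -3.40 ± 0.26, and 3 of those 5 mice lay below the dim limit. Whether a further fall of Cd72 could be measured there was not tested either. Neither gene's groups overlapped, and the slopes were -0.26 ± 0.02 for Cd22 and -0.23 ± 0.02 for Cd72 per 100 cGy (adjusted p = 2.36e-20 and 2.38e-22).

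**Figure D1:**
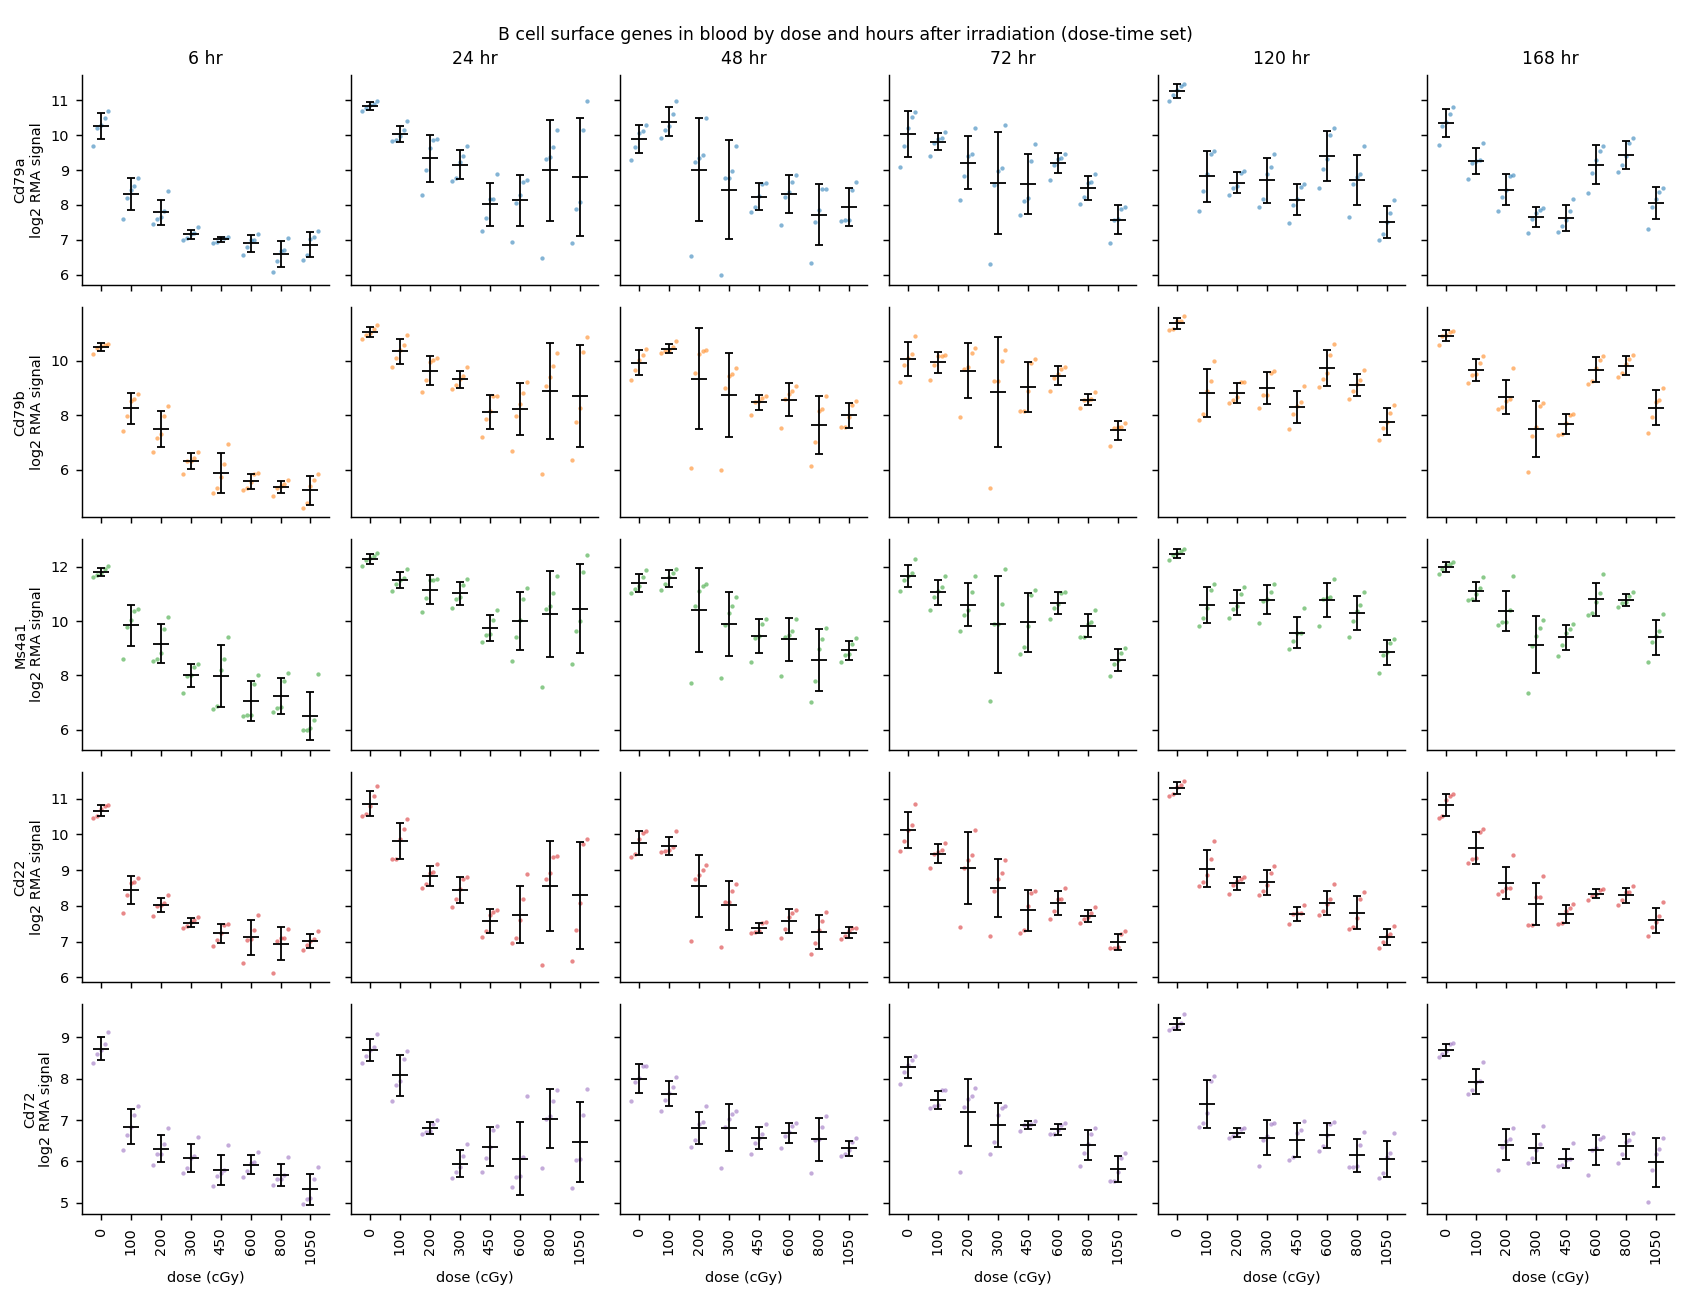
Log2 level of the 5 members (rows of panels) by dose in cGy at 6, 24, 48, 72, 120 and 168 hr (columns) in the dose-time set; points are mice and bars are mean ± SD, n = 5. At 6 hr Cd79b lay between 4.61 and 5.84 at 1050 cGy, against 10.26 to 10.63 at 0 cGy, and at 168 hr its means were 9.68 and 9.82 at 600 and 800 cGy, above the 7.67 at 450 cGy.

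The step from 0 to 100 cGy at 6 hr was called lower for all 5 members, where 17.4% of all genes were, and the step from 0 to 1050 cGy likewise for all 5, where 23.4% were. Between 100 and 1050 cGy the 5 members were again lower, with differences of -1.42 to -3.35, where 3.89% of all genes were; the Cd79a call between these doses held in 2 of 5 fits with 1 mouse per group left out. The median of all genes moved by 0.11 at 100 cGy and by 0.14 at 1050 cGy at 6 hr, small beside the members' median differences of -1.96 and -3.65. The spread of values over genes of an array (SD) was 1.69 to 1.92 at 100 cGy and at 1050 cGy, against 1.9 to 2.02 at 0 cGy. The part of array spread in the 6 hr result was not tested. Within each of the 5 runs the 1050 cGy mouse lay below the 0 cGy mouse for each member at 6 hr, with differences of -2.45 to -4.08 for Cd79a.

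After 6 hr the difference at the lowest dose was not called at every time. Within runs, the 100 cGy mouse lay below the 0 cGy mouse in 5 of 5 runs for each member at 6, 24, 120 and 168 hr. At 48 hr it did so in 1 of 5 runs for Cd79a, Cd79b and Ms4a1, 2 for Cd22 and 4 for Cd72, and at 72 hr in 3, 3, 4, 4 and 5 of 5 in the same order. At 24 hr 1 member was called lower at 100 cGy, Cd22 by -1.05 ± 0.32 (adjusted p = 0.0209), where 1.16% of all genes were, and the other 4 differed by -0.62 to -0.81. Dropping 1 mouse per group in turn kept the Cd22 call in 2 of 5 fits, and a fit on the 2 groups alone called 4 members. Over all alternative settings 49 to 981 of all genes were called lower here, beside 144. At 48 hr none was called (limma, 0 members also at an unadjusted p under 0.05), where 18.2% of genes were lower. Cd79a stood at 9.92 to 10.98 at 100 cGy, against 9.29 to 10.29 at 0 cGy, and the groups overlapped. At 72 hr Cd72 was called, by -0.78 ± 0.26 (adjusted p = 0.0292), where 4.35% of genes were lower, and the other 4 differed by -0.12 to -0.65; its call held in 2 of 5 such fits.

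At 120 hr the level at 100 cGy was again low for all 5 members, where 31.7% of all genes were called lower. Cd79a was at 7.82, 8.39, 8.89, 9.45 and 9.54 at 100 cGy, against 10.97 to 11.47 at 0 cGy, a difference of -2.44 ± 0.42. Cd22 differed by -2.25 ± 0.32 and Cd72, at 6.84 to 8.07 against 9.19 to 9.57, by -1.93 ± 0.26. The groups did not overlap for Cd79a or Cd72. The unirradiated level was at its highest at this time, the arrays at 100 cGy had a spread of values over genes (SD 1.79 to 1.95) below that of the 0 cGy arrays (2.11 to 2.21), and the median of all genes differed by 0.16, whose part in the result was not tested. At 168 hr Cd22 (-1.21 ± 0.32, adjusted p = 0.00605) and Cd72 (-0.78 ± 0.26, adjusted p = 0.0329) were called at 100 cGy, where 9.96% of genes were. Cd79a, Cd79b and Ms4a1 differed by -1.10, -1.26 and -0.91 with adjusted p of 0.0583, 0.0639 and 0.167. With 1 mouse per group left out the Cd22 call held in 3 of 5 fits and the Cd72 call in 1, while a fit on the 2 groups alone called all 5. Over all alternative settings 55 to 3232 of all genes were called lower here, beside 1234. The change of the 100 cGy effect between 168 and 6 hr, tested as its own contrast, was 0.87 to 1.11 toward 0 and was called for 0 members (limma, 2 at an unadjusted p under 0.05), where 0.654% of all genes were called.

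**Figure D2:**
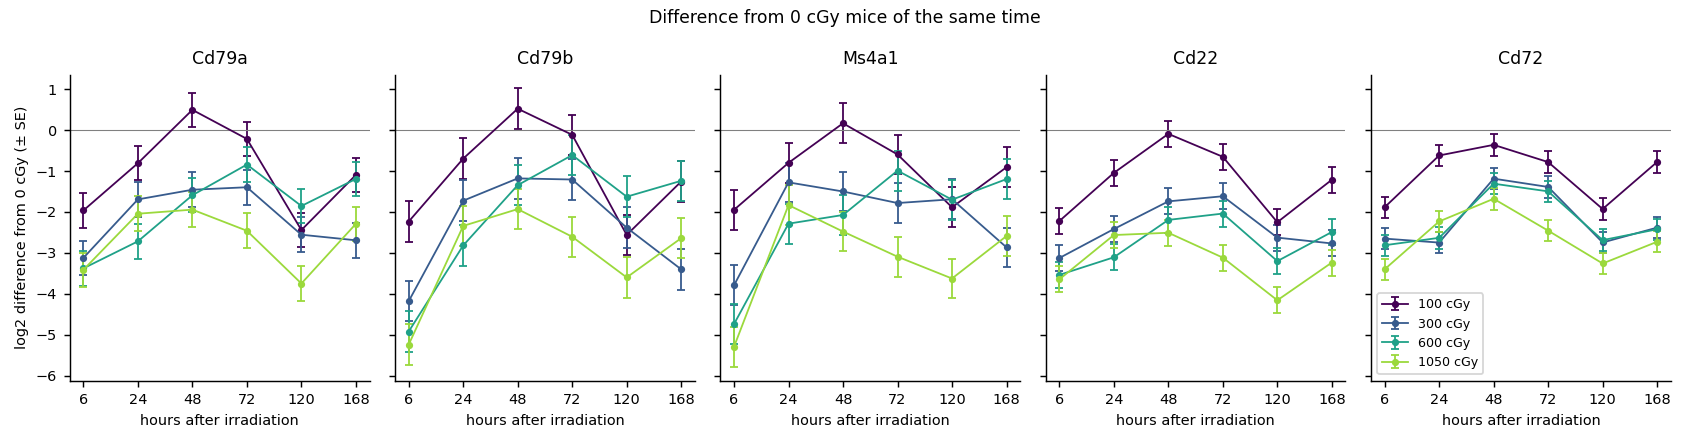
Difference in log2 level from the 0 cGy mice of the same time at 100, 300, 600 and 1050 cGy, by time in hr, 1 panel per member; bars are ± SE of the limma fit over all groups, n = 5 per group. The 100 cGy lines run near 0 at 48 hr, where Cd79a differed by 0.50, and lie at -2.44 for Cd79a at 120 hr.

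At 1050 cGy all 5 members were lower than at 0 cGy at every time. At 24 hr the differences were -1.83 to -2.56, where 11.4% of all genes were called lower; at 48 hr -1.68 to -2.51 (26.8%); at 72 hr -2.46 to -3.12 (26.6%); at 120 hr -3.26 to -4.16 (25.3%); and at 168 hr -2.29 to -3.24 (33.3%). The members' 24 hr differences at 1050 cGy were smaller than those of 6 hr, a contrast between these 2 times that was not tested. A fit on the 24 hr groups at 0 and 1050 cGy alone called 2 members, and mice at 24 hr were unlike each other. Cd79a was at 6.90, 7.89, 8.09, 10.15 and 10.99 at 1050 cGy and at 6.47, 9.30, 9.36, 9.67 and 10.14 at 800 cGy, against 10.69 to 10.98 at 0 cGy. So 1 mouse at 1050 cGy reached the unirradiated range and another came near it. The same 2 mice led Cd79b (10.86 and 10.31), Ms4a1 (12.44 and 11.80) and Cd22 (9.87 and 9.73), but for Cd72 they had 6.07 and 7.76, and all 5 lay below the 0 cGy mice. Their Alb levels were 9.33 and 12.44, within the 6.12 to 13.61 of the group. Within runs, the 1050 cGy mouse lay below its 0 cGy mouse in 5 of 5 runs for each member and time, except Cd79a and Ms4a1 at 24 hr with 4 of 5.

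At 1050 cGy the members lay below their level at 100 cGy. Between 1050 and 100 cGy 4 members were called lower at 24 hr, where 6.58% of genes were, with Ms4a1 at -1.03 ± 0.49 (adjusted p = 0.17). A fit on the 24 hr groups alone called 0 members, and leaving out 1 mouse per group gave 1 to 5. All 5 were called at 48 hr (17%), 72 hr (16.3%), 120 hr (42.1%) and 168 hr (38.9%), with differences of -1.04 to -2.65. The smallest, Cd79b at 120 hr (-1.04 ± 0.50), was called in 1 of 5 fits with 1 mouse per group left out, and at 168 hr 3 to 5 members were. At 120 and 168 hr the median of all genes moved by -0.11 and -0.12 in this comparison. The slope over all 8 doses was negative for all 5 members at 24 hr (19.8% of genes called lower), 48 hr (23.3%), 72 hr (27.1%), 120 hr (47%) and 168 hr (46.6%). With 1 mouse per group left out, the 168 hr slope was called in 4 of 5 fits for Cd79a and for Cd79b. It was called in 5 of 5 fits for Ms4a1, Cd22 and Cd72.

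At 168 hr the dose curve of Cd79a, Cd79b and Ms4a1 turned upward between 450 and 800 cGy. Cd79a was at 7.22 to 8.16 at 450 cGy, 8.96 to 9.91 at 800 cGy and 7.32 to 8.47 at 1050 cGy, against 9.72 to 10.80 at 0 cGy, so the 800 cGy mice overlapped the unirradiated ones and lay above all 450 and 1050 cGy mice. Cd79b averaged 7.67 ± 0.37, 9.68 ± 0.46, 9.82 ± 0.34 and 8.28 ± 0.65 from 450 to 1050 cGy, against 10.92 ± 0.21 at 0 cGy. Ms4a1 averaged 9.40 ± 0.47, 10.80 ± 0.61, 10.77 ± 0.21 and 9.41 ± 0.64, against 12.00 ± 0.19 at 0 cGy. For each of the 3 genes the step from 450 to 600 cGy exceeded the larger SD, and so did the step back from 800 to 1050 cGy. Both steps also did so for Cd22, whose means are given below.

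Cd79a, Cd79b and Ms4a1 also had a step upward from 450 to 600 cGy at 120 hr, larger than the larger SD. From 450 to 1050 cGy the means there were 8.14 ± 0.45, 9.41 ± 0.71, 8.72 ± 0.73 and 7.51 ± 0.46 for Cd79a, 8.30 ± 0.58, 9.75 ± 0.66, 9.12 ± 0.41 and 7.77 ± 0.50 for Cd79b, and 9.58 ± 0.57, 10.77 ± 0.62, 10.29 ± 0.62 and 8.85 ± 0.48 for Ms4a1. The step was within the SD for Cd22 (7.78 to 8.09) and Cd72 (6.52 to 6.63).

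At 168 hr the values of the inhibitory co-receptors were less curved, a difference between genes that was not tested. Cd22 had a smaller upturn, with means of 7.77 ± 0.25, 8.34 ± 0.13, 8.30 ± 0.21 and 7.59 ± 0.35 from 450 to 1050 cGy, against 10.83 ± 0.31 at 0 cGy. Its steps from 450 to 600 cGy and from 800 to 1050 cGy still exceeded the larger SD. Cd72 had none beyond its spread at that time: it was at 5.88 to 6.46 at 450 cGy, 5.96 to 6.70 at 800 cGy and 5.03 to 6.57 at 1050 cGy, against 8.53 to 8.86 at 0 cGy. At 24 hr Cd72 did have a step upward beyond the SD, with 6.07 ± 0.88 at 600 cGy and 7.03 ± 0.72 at 800 cGy. At 168 hr Alb stood at 12.32 to 13.87 at 450 cGy, 14.11 to 14.66 at 600 cGy, 14.47 to 14.75 at 800 cGy and up to 14.78 at 1050 cGy, against 5.64 to 8.69 at 0 cGy, and the spread over genes of an array was 1.89 to 1.97 at 450 cGy and 2.14 to 2.27 from 600 to 1050 cGy. The mean of the 9 B cell transcription factors was 6.04 to 6.38 at 450 cGy and 6.81 to 6.96 at 800 cGy, against 8.02 to 8.39 at 0 cGy. The mean of 13 T cell genes was 6.67 to 7.12 at 450 cGy and 6.35 to 6.96 at 800 cGy, against 8.68 to 8.85 at 0 cGy. The part of hepatocyte transcript or array spread in the upturn was not tested.

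**Figure D3:**
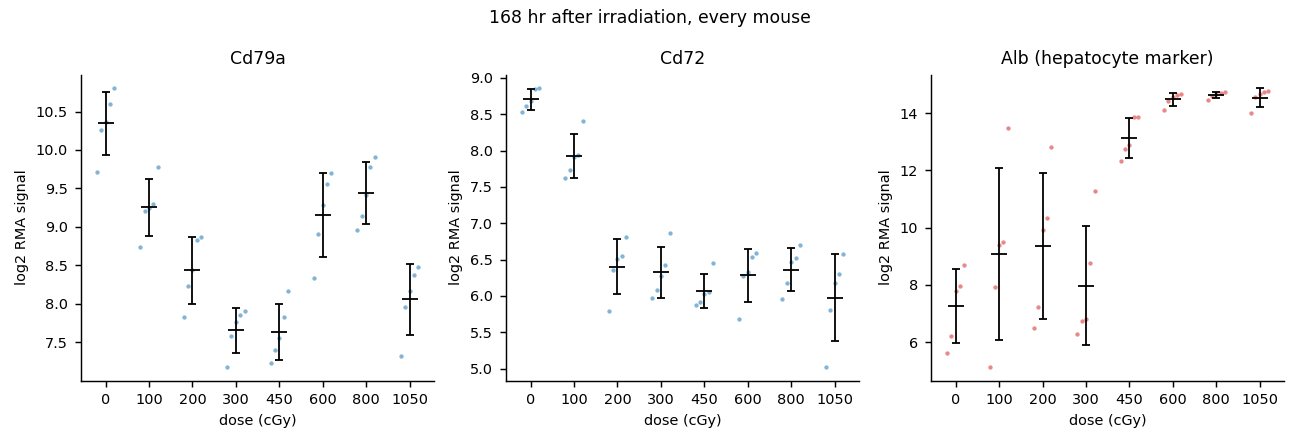
Log2 levels of Cd79a, Cd72 and Alb, the hepatocyte transcript, at 168 hr by dose in cGy in the dose-time set; points are mice and bars mean ± SD, n = 5. Cd79a lay at 8.96 to 9.91 at 800 cGy, above all mice at 450 cGy, while Cd72 lay at 5.96 to 6.70 and Alb at 14.47 to 14.75.

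The slope at 168 hr minus that at 6 hr was called for Cd79a (0.17 ± 0.04), Cd79b (0.33 ± 0.05) and Ms4a1 (0.30 ± 0.05), and not for Cd22 (0.04 ± 0.03) or Cd72 (0.03 ± 0.03, adjusted p = 0.26 for both). This contrast called 78.7% of all genes in either direction. Over doses up to 300 cGy at both times, an alternative added after seeing the data, 0 of the 5 members were called, with changes of 0.10, 0.21, 0.28, 0.05 and -0.02 in the order Cd79a, Cd79b, Ms4a1, Cd22 and Cd72.

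The members moved together between groups, and within groups the pairs with Cd72 moved most loosely. Over the 48 group means of the dose-time set, Pearson's r between members was 0.80 to 0.97, highest for Cd79b with Ms4a1 (0.97) and Cd79a with Cd79b (0.97). After group means were subtracted, the same pair Cd79b and Ms4a1 had r = 0.92 over 240 mice. Cd79b with Cd22 had 0.85, beside 0.83 over group means. The pairs with Cd72 had 0.31 (Ms4a1) to 0.52 (Cd22). The points share arrays and normalisation, and the values are descriptions. The genes whose group means ran most like the mean of the 5 members were H2-Eb1 (r = 0.98), Spib (0.98), Ly6d (0.97), H2-DMb2 (0.96), H2-Ab1 (0.95), Blnk (0.95), S1pr1 (0.95), Iglv1 (0.95), Slc25a53 (0.94) and Tnfrsf13c (0.94), over 48 groups. H2-Eb1, H2-Ab1 and H2-DMb2 are MHC class II genes, Spib is a B cell transcription factor, Tnfrsf13c the receptor for the survival factor BAFF, and S1pr1 a receptor of lymphocyte egress. By member, the closest gene was H2-Eb1 for Cd79a (0.97), the immunoglobulin kappa segment Igkv8-30 for Cd79b (0.99), Spib for Ms4a1 (0.98), the transcription factor Bcl11a for Cd22 (0.97) and Rhoh for Cd72 (0.95).

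Downstream of the receptor, of 22 measured signalling genes 5 fell with dose at 6 hr and 1 rose, where 18.5% of all genes fell and 16.2% rose, with a median slope of -0.003 per 100 cGy beside 0.004 for all genes. Blnk, the adaptor that links Syk to its targets, had a slope of -0.27 ± 0.03. The kinase Blk had -0.16 ± 0.02, Prkcb, the protein kinase C of the pathway, -0.11 ± 0.02, and the complement receptor Cr2 -0.09 ± 0.02. At 168 hr 12 of the 22 fell and 4 rose, where 46.6% of all genes fell and 35.5% rose, among them Cr2 at -0.23 ± 0.02, the phosphatase Ptprc at -0.16 ± 0.02, Vav2 at -0.11 ± 0.01 and the kinase Akt1 at 0.26 ± 0.01. Many of these genes are also used by other blood cells. The same shares of all genes at 6 and 168 hr stand beside the counts of each list that follows.

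A further list, of inhibitory receptors, Fc receptor-like genes and effectors, split by gene. Of 14 measured, 8 fell and 4 rose at 6 hr. The Fc receptor-like genes Fcrla and Fcrl1 had slopes of -0.22 ± 0.03 and -0.18 ± 0.02, while Pirb and Cd300a, inhibitory receptors known in myeloid cells, had 0.14 ± 0.02 and 0.09 ± 0.01. At 168 hr 9 fell and 3 rose, with Fcrl1 at -0.32 ± 0.02, Fcrla at -0.25 ± 0.03, Lair1 at -0.14 ± 0.01 and Pirb at 0.18 ± 0.02. Of 21 other B cell surface genes, 16 fell and 0 rose at 6 hr, with a median of -0.14, led by the MHC class II chaperone Cd74 (-0.29 ± 0.03), the complement regulator Cd55 (-0.18 ± 0.02), Ly6d (-0.27 ± 0.03) and Tnfrsf13c (-0.18 ± 0.02). At 168 hr 13 fell and 2 rose, where 46.6% of all genes fell. The low-affinity IgE receptor Fcer2a had -0.39 ± 0.02, Cd24a -0.27 ± 0.02 and Cd83 -0.28 ± 0.02.

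On the ligand side of the co-receptors, 2 of 3 genes fell at 6 hr. Cmah and St6gal1, enzymes that make sialic acid ligands of CD22, had slopes of -0.14 ± 0.02 each. Sema4d, the ligand of CD72, had -0.01 ± 0.02 (adjusted p = 0.81) at 6 hr and -0.19 ± 0.02 at 168 hr, where it alone of the 3 fell. Of 9 B cell transcription factors, 7 fell at 6 hr, with Pou2af1 at -0.43 ± 0.04, Spib at -0.31 ± 0.04, Irf8 at -0.17 ± 0.02 and Ebf1 at -0.16 ± 0.02, and all 9 at 168 hr, with Ebf1 at -0.26 ± 0.02 and Pax5 at -0.10 ± 0.01. These lists were chosen with earlier results of the same data known, so their direction is no independent evidence.

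Markers of other blood cells moved on the same arrays. At 6 hr 11 of 13 T cell genes fell and 1 rose (Thy1 at -0.28 ± 0.03), 4 of 6 NK cell genes fell, and all 10 mature neutrophil genes rose (Il1r2 at 0.42 ± 0.03). The mean of the neutrophil genes was 10.35 to 11.09 in the 1050 cGy mice at 6 hr, against 7.74 to 8.49 at 0 cGy. Of 6 plasma cell genes 2 fell and 1 rose, of 6 monocyte genes 1 fell and 2 rose, and 0 of the 8 erythroid, 8 platelet and 10 hepatocyte genes were called. At 168 hr, where 46.6% of all genes fell and 35.5% rose, 12 of 13 T cell genes, 6 of 10 neutrophil genes, all 8 erythroid and 6 of 8 platelet genes fell. NK cell genes had 1 lower and 4 higher, plasma cell genes 3 and 1, monocyte genes 3 and 3, and all 10 hepatocyte genes rose, with a median slope of 0.93. The part of shifts between blood cell types in the members' levels was not tested.

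In the sex and treatment set 217 arrays carry 1 run code and 9 another. The 9 are all of 24 hr blood at 200 or 300 cGy, and in the 7 groups that hold them the highest mouse was on the smaller run in 5 groups for Cd79a, in 4 each for Cd79b, Ms4a1 and Cd22, and in 3 for Cd72. Leaving these 9 arrays out, an alternative added after seeing the data, gave 24 hr slopes of -0.46, -0.31 and -0.14 for Cd79a without agent, with GCSF and with LPS, beside -0.45, -0.31 and -0.15 with all arrays, and changed no call of the members at 24 hr; nor did the run as a block.

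In the sex and treatment set the dose response at 6 and 24 hr appeared again in mice without agent. The slope over 0, 200, 300 and 600 cGy, averaged over the sexes, was called lower for all 5 members at 6 hr, where 12.4% of all genes were, and at 24 hr, where 22.9% were. For Cd79a it was -0.43 ± 0.04 per 100 cGy at 6 hr and -0.45 ± 0.04 at 24 hr. The scale differs from the dose-time slope, since this set stops at 600 cGy. With GCSF all 5 members again had lower levels with dose at 6 hr (23.9% of genes) and 24 hr (17.4%), with Cd79a at -0.49 ± 0.04 and -0.31 ± 0.04. The slope with GCSF minus that without agent was called for 0 members at either time (limma), where 0.0161% of all genes were called at 6 hr and 0.00807% at 24 hr, and for Cd79a its 95% interval was -0.18 to 0.05 at 6 hr and 0.02 to 0.25 at 24 hr. At an unadjusted p under 0.05, 2 members passed at 6 hr and 1 at 24 hr. Without irradiation GCSF called 0 members and 0% of genes at 6 hr (limma, 283 genes and 0 members at an unadjusted p under 0.05), and 0 members at 24 hr (2 unadjusted), where 0.549% of genes were called.

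With LPS and no irradiation all 5 members were lower. At 0 cGy and 6 hr Cd79a averaged 7.67 ± 0.34 (n = 3) in females and 7.10 ± 0.31 (n = 5) in males given LPS, against 9.63 ± 0.18 and 9.02 ± 0.68 (n = 5 each) in females and males without agent. The fitted LPS differences at 6 hr were -1.94 ± 0.27 for Cd79a, -2.34 ± 0.38 for Cd79b, -1.92 ± 0.43 for Ms4a1, -1.55 ± 0.25 for Cd22 and -1.33 ± 0.18 for Cd72, where 35.2% of all genes were called in either direction. At 24 hr they were -2.91, -2.93, -2.72, -2.50 and -1.99 in the same order, with 21.9% of genes called, and Cd79a averaged 6.94 ± 0.26 (n = 4) and 7.21 ± 0.84 (n = 5) in LPS females and males, against 10.05 ± 0.23 and 9.92 ± 0.27. At 0 cGy and 6 hr Alb was high on 1 of 8 LPS, 4 of 10 GCSF and 2 of 10 arrays without agent. At 24 hr it was high on 2 of 9, 6 of 10 and 4 of 10 in that order, and its part was not tested.

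From that lower level the dose response under LPS was flatter for 3 members. At 6 hr the slope was called for Cd79b (-0.35 ± 0.06), Cd22 (-0.15 ± 0.04) and Cd72 (-0.17 ± 0.03), where 15.8% of genes were lower, and not for Cd79a (-0.09 ± 0.04, adjusted p = 0.0963) or Ms4a1 (-0.15 ± 0.07, adjusted p = 0.0752). These slopes average the sexes. Under LPS at 6 hr Ms4a1 averaged 10.37 at 0 cGy and 10.19 at 600 cGy in females, and 8.96 and 7.31 in males. Cd79a averaged 7.67 and 6.55 in females, and 7.10 and 6.98 in males. The sex difference under LPS was not tested. At 24 hr the LPS slope was called for all 5, where 9.8% of genes were, for Cd79a in 3 of 5 fits with 1 mouse per group left out. The slope with LPS minus that without agent was called higher at 6 hr for Cd79a (0.34 ± 0.06), Cd22 (0.29 ± 0.06) and Cd72 (0.25 ± 0.04), where 6.45% of genes were called, and had adjusted p of 0.0798 for Cd79b (0.23 ± 0.08) and 0.0753 for Ms4a1 (0.26 ± 0.09). Without the 9 arrays of the smaller run, which share the spread of the fit, all 5 were called at 6 hr. At 24 hr the same 3 members were called, at 0.31 ± 0.06, 0.25 ± 0.06 and 0.30 ± 0.04, where 16.5% of genes were. Cd79b had 0.08 ± 0.08 and Ms4a1 -0.13 ± 0.09, whose 95% interval of -0.31 to 0.06 lies below that of Cd79a, 0.19 to 0.42. The difference between members was not tested. At 6 hr Cd72 averaged 7.80 and 6.40 in LPS females and males at 0 cGy, and 6.55 and 5.48 at 600 cGy, beside the dim limit of 5.27. Cd79a averaged 7.67 and 7.10 in LPS females and males at 0 cGy, beside 7.27 and 5.97 at 600 cGy without agent. Whether the lower start under LPS left less room to fall with dose was not tested.

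**Figure D4:**
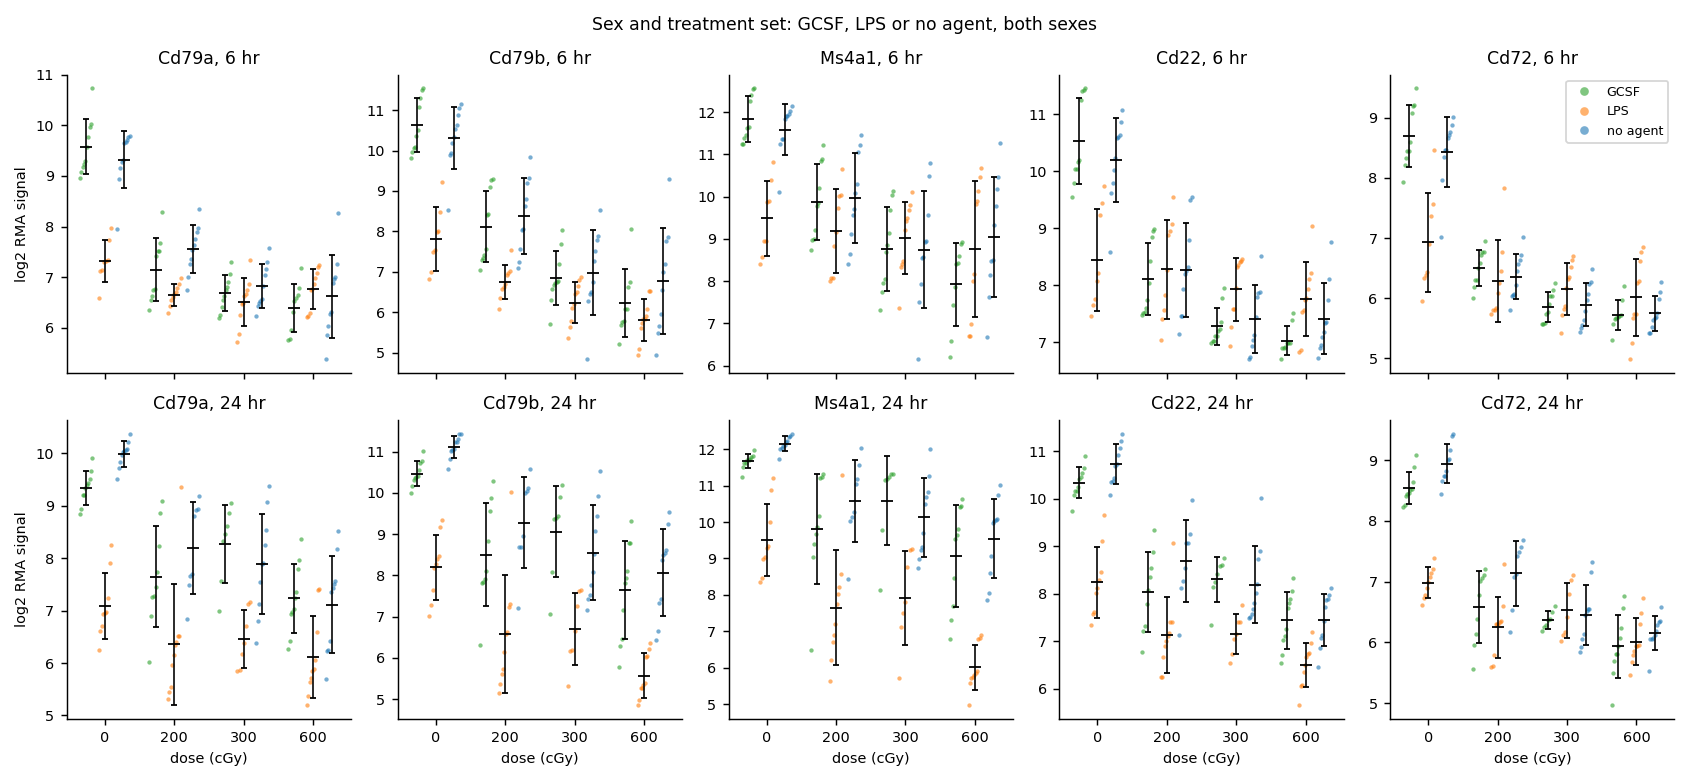
Log2 level of the members by dose in cGy at 6 and 24 hr in mice given GCSF, LPS or no agent, both sexes together; points are mice and bars mean ± SD, and each panel has its own vertical axis. At 0 cGy the LPS mice lay below the mice without agent, with Cd79a at 6.94 and 7.21 on average in LPS females and males at 24 hr, against 10.05 and 9.92.

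At 0 cGy and 6 hr without agent, 2 members were higher in females than in males, Cd22 by 1.10 ± 0.33 (adjusted p = 0.0105) and Cd72 by 0.75 ± 0.24 (adjusted p = 0.0161), where 27.8% of all genes were called in either direction. The other 3 differed by 0.61 to 0.95. With 1 mouse per group left out the calls held in 4 of 5 fits for Cd22 and 3 of 5 for Cd72. At 24 hr 0 members were called (limma, 0 also unadjusted), where 0.0726% of genes were, and Cd22 differed by -0.38 ± 0.33. The slope on dose in females minus that in males was called for 0 members at 6 hr (0 unadjusted), where 10.3% of genes were, and for 0 members and 0% of genes at 24 hr (296 genes and 3 members at an unadjusted p under 0.05).

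In the small treatment set 1 of the 6 untreated 0 cGy mice stood apart from the other 5 in Cd79a (7.24 against 10.82 to 11.74), Cd79b (7.26 against 10.42 to 11.27), Ms4a1 (8.82 against 11.65 to 12.15) and Cd22 (7.13 against 10.15 to 10.89), and was the lowest in Cd72 (5.33 against 7.26 to 8.60). On the same array the mean of the 10 hepatocyte genes was 10.8 against 4.81 to 8.13, of the mature neutrophil genes 11.22 against 8.38 to 9.23, of the platelet genes 11.78 against 10.57 to 10.75 and of the T cell genes 7.13 against 8.14 to 8.73. Each result that rests on this group is given with and without it; leaving it out was chosen after seeing the data.

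Without agent, 150 cGy was called lower for 1 member with all mice, Cd72 by -1.17 ± 0.29, where 1.07% of genes were, and for all 5 without that mouse, with Cd79a at -2.06 ± 0.30 and Ms4a1 at -1.44. The Cd72 call with all mice held in 1 of 6 fits with 1 mouse per group left out, and a fit on the compared groups alone called 0 members. At 600 cGy 4 members were called with all mice, where 1.86% of genes were, and 5 without it. Leaving out 1 mouse per group gave 1 to 5, with Cd72 called in 6 of 6 fits, and the compared groups alone gave 0. Cd79a at 600 cGy had 7.87 to 10.14, against 10.82 to 11.74 in the other 5 untreated mice. GCSF mice had 2 members called at 150 cGy (Cd22 by -1.41 ± 0.38 and Cd72 by -1.81 ± 0.31), where 0.807% of genes were, and 4 without the mouse, whose own group is not in that contrast but whose values enter the shared spread. With 1 mouse per group left out, the Cd22 call held in 1 of 6 fits and the Cd72 call in 6 of 6. At 600 cGy with GCSF all 5 were called (14.1% of genes), with Cd79a at 7.43 to 8.30 at 600 cGy, against 11.29 to 11.72 at 0 cGy, a difference of -3.61 ± 0.46. With LPS 3 members were called at 150 cGy, Cd79a by -2.19 ± 0.46, Cd79b by -2.23 ± 0.44 and Cd72 by -1.82 ± 0.31, where 2.4% of genes were, and 5 without the mouse. All 5 were called at 600 cGy (9.55%), with Cd79a at 5.81 to 7.43, against 9.66 to 10.21 at 0 cGy.

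Agents at 0 cGy in this set called 0 members with all mice, where 0.549% of genes were called for GCSF (2 members unadjusted) and 26.2% for LPS (0 members unadjusted). At 0 cGy Alb was high on 5 of 6 GCSF arrays, 0 of 6 LPS arrays and 3 of 6 arrays without agent. The part of Alb in these comparisons was not tested. Without the mouse that stood apart, LPS was called lower for 4 members, Cd79a by -1.54 ± 0.30, Cd79b by -1.08, Ms4a1 by -1.01 and Cd22 by -0.93, while Cd72 had -0.05. GCSF was called for 0 members without it, with Cd79a at 0.06 ± 0.30 beside 0.76 with all mice. The 600 cGy effect with an agent minus that without was called for 0 members, where 0.0323% of genes were for GCSF (4 members unadjusted) and 3.15% for LPS (2 unadjusted). Without that mouse 0 members were called too, with Cd79a at -1.02 ± 0.43 for GCSF beside -1.72 ± 0.64 with all mice, and at -0.67 ± 0.42 for LPS beside -1.37 ± 0.63.

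The small 7 day set tested a low dose a week later. At 168 hr after 150 cGy Cd79a was at 8.40, 8.91 and 9.26 (lowest, median and highest of 10 mice), against 10.86, 11.28 and 11.39 in the 3 mice at 0 cGy. The groups did not overlap for any member, which was not counted over all genes. Cd79a differed by -2.24 ± 0.16, Cd79b by -2.33 ± 0.24, Ms4a1 by -1.50 ± 0.20, Cd22 by -2.47 ± 0.18 and Cd72 by -2.09 ± 0.21, all called, where 33.3% of all genes were lower. Alb was high on 3 of the 10 arrays at 150 cGy and 0 of the 3 at 0 cGy. The spread over genes of an array was 1.78 to 2.11 at 150 cGy, below the 2.24 to 2.28 at 0 cGy. The part of Alb or array spread in the result was not tested.

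**Figure D5:**
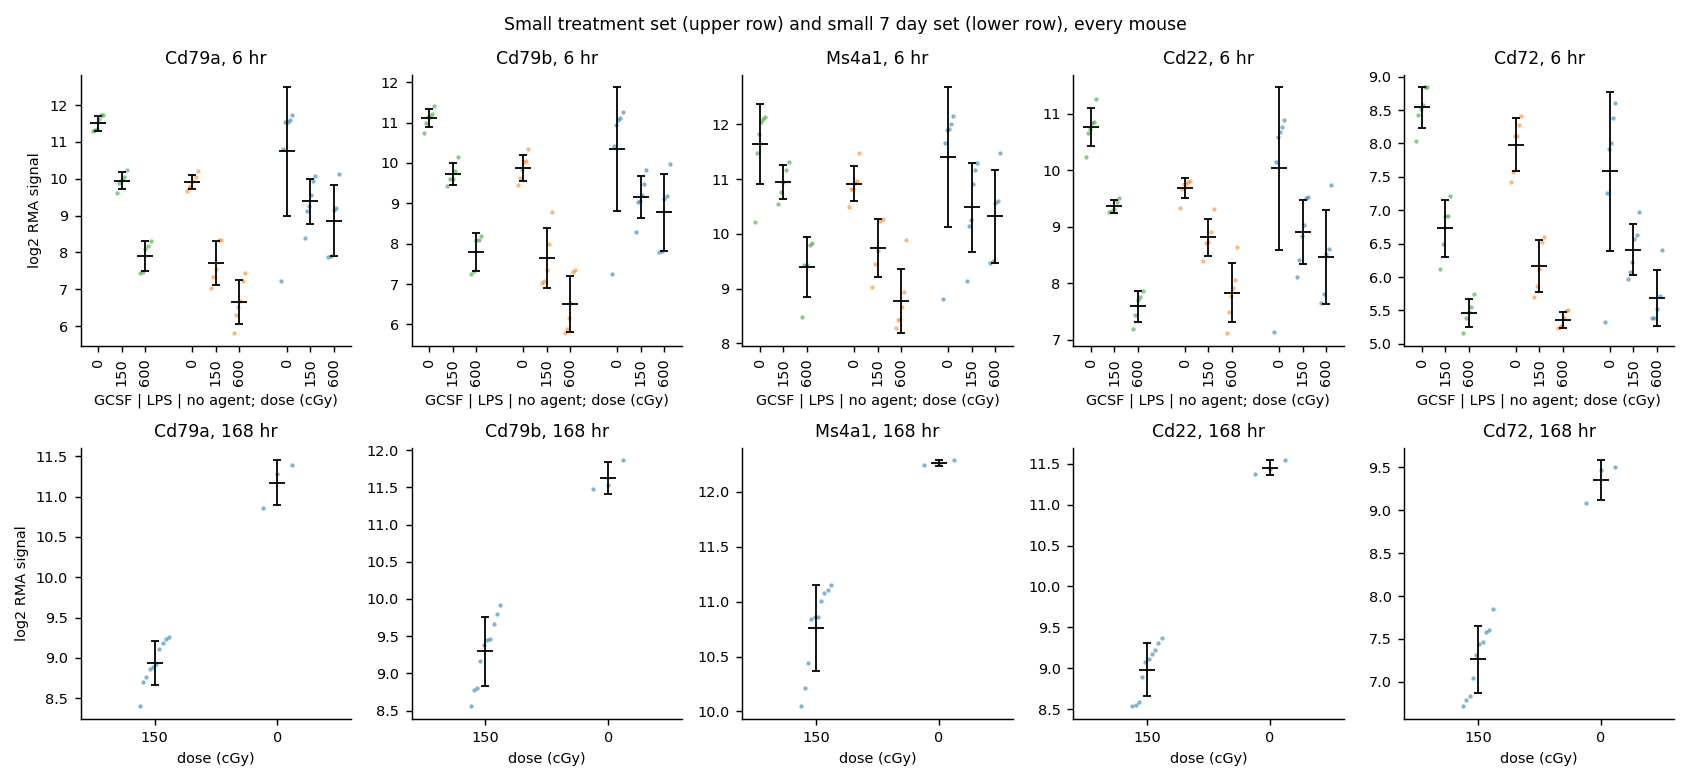
Log2 level of the 5 members in the small sets; points are mice and bars mean ± SD. The upper row shows 0, 150 and 600 cGy at 6 hr with GCSF, LPS or no agent (5 or 6 mice per group), where 1 untreated 0 cGy mouse lies at 7.24 for Cd79a; the lower row shows 150 cGy, at 8.40 to 9.26 for Cd79a in 10 mice, against 0 cGy, at 10.86 to 11.39 in 3 mice, at 168 hr.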

How the data were processed

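The deposited table holds log2 values of 22690 probe sets on 536 arrays. Per the submitters' processing notes they are RMA values from the package affy; the version, the settings and whether all batches were normalised together are not given in the sources used here. RMA reduces array-wide shifts, so values are relative levels, and the number of mice limits the precision. The log2 values, 2.17 to 14.85, were used as deposited.

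Left out were 64 control probe sets, 1555 that have no gene symbol and 691 that name more than 1 gene. The rest gave 12393 genes, each read from the probe set that was brightest on average. Repeat scans of 2 mice were averaged. Each set was fitted apart with limma 3.58.1 in R 4.3.3 (group means over all groups of the set, eBayes), contrasts were tested two-sided, and p-values were adjusted by Benjamini-Hochberg over all 12393 genes at a threshold of 0.05. Slopes are linear in dose. The scripts were tested on simulated data. Mouse numbers were checked for pairing: residuals of same-numbered mice correlated by 0.02, 0.04, 0.06 and -0.13 on average in the 4 sets, so they were not used as a block.

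Alternatives were other normalisations, probe set rules, filters, blocks, weights, dose scales and leaving out mice. Named genes were the members, up to 4 genes with the smallest p of each list at 6 hr and at 168 hr, and the closest patterns by Pearson's r. The members and lists were chosen with earlier results of these data known.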

Additional observations from a re-analysis of the deposited data

Results flagged for a closer look

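Over 515 groups of 4 to 10 mice tested for the 5 members, 43 values (29 low and 14 high, in 27 mice) lay farther from the nearest other mouse than Dixon's 95% limit allows for the group's range. That is 8.35% of the groups, where chance gives about 1 in 20 for each test. The 5 members share the same mice and correlate within groups, so the tests are not independent. No excess over chance can be read from these shares. The nearest other value follows each.

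3 mice stood apart in 4 members. In the dose-time set, mouse 4 at 300 cGy and 48 hr was low in Cd79a (5.98, nearest 8.76), Cd79b (6.01, nearest 9.01), Cd22 (6.85, nearest 8.11) and Cd72 (5.83, nearest 6.83). In the sex and treatment set, male mouse 3 with LPS and 200 cGy at 24 hr was high in Cd79a (9.35, nearest 6.35), Cd79b (10.03, nearest 5.73), Ms4a1 (11.28, nearest 6.91) and Cd22 (9.07, nearest 6.90). Its array is the 1 of its group of 5 on the smaller of the set's array runs, and its part in these values was not tested. In the small treatment set, untreated mouse 10 at 0 cGy was low in Cd79a (7.24, nearest 10.82), Cd79b (7.26, nearest 10.42), Ms4a1 (8.82, nearest 11.65) and Cd22 (7.13, nearest 10.15).

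Further mice stood apart in 2 or 3 members. Mouse 5 at 200 cGy and 48 hr was low in Cd79b (6.08, nearest 9.57), Ms4a1 (7.72, nearest 10.56) and Cd22 (7.02, nearest 8.76). Mouse 10 at 800 cGy and 24 hr was low in Cd79a (6.47, nearest 9.30), Cd79b (5.83, nearest 9.08) and Cd22 (6.36, nearest 8.76). Mouse 5 at 200 cGy and 168 hr was high in Cd79b (9.73, nearest 8.59) and Cd22 (9.42, nearest 8.51). Female mouse 1 without agent at 200 cGy and 24 hr was low in Cd79a (7.66, nearest 8.80), Cd79b (8.96, nearest 9.99) and Cd22 (8.13, nearest 9.08).

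Single values in the dose-time set were Cd22 10.10 (nearest 9.65) at 100 cGy and 48 hr and 6.13 (nearest 7.02) at 800 cGy and 6 hr, Cd72 5.75 (nearest 7.32) at 200 cGy and 72 hr, Cd79b 5.34 (nearest 9.26) at 300 cGy and 6.86 (nearest 7.54) at 1050 cGy, both at 72 hr, and Ms4a1 8.06 (nearest 6.38) at 1050 cGy and 6 hr. In the sex and treatment set at 6 hr they were Cd22 10.05 (nearest 11.26) in a GCSF female at 0 cGy and 7.95 (nearest 7.10) in a GCSF male at 300 cGy, Cd72 6.25 (nearest 5.85) in an LPS male at 200 cGy, Cd79a 9.31 (nearest 9.65) and 8.26 (nearest 7.27) in females without agent at 0 and 600 cGy, Cd79a 6.58 (nearest 7.12) in an LPS male at 0 cGy, and Cd79b 8.05 (nearest 6.08) in a GCSF female at 600 cGy. At 24 hr they were Cd72 5.53 (nearest 6.06) in a female without agent at 600 cGy, Cd79b 9.90 (nearest 9.43) in a GCSF female at 300 cGy and 7.28 (nearest 8.27) in an LPS female at 0 cGy, and Ms4a1 6.78 (nearest 9.53) in a GCSF female and 6.89 (nearest 5.93) in an LPS male, both at 600 cGy. In the small treatment set at 0 cGy they were Cd22 9.33 (nearest 9.67) with LPS and Ms4a1 10.23 (nearest 11.48) with GCSF.

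Effects differed between conditions, by a test of the difference itself, for the slope per 100 cGy at 168 hr minus that at 6 hr in Cd79a (0.17), Cd79b (0.33) and Ms4a1 (0.30), where 78.7% of all genes were called. Over doses up to 300 cGy at both times 0 members were called, and without the arrays with Alb at 10 or more, which leaves 0 to 300 cGy at 168 hr, the values for all 5 members were -0.55 to -0.69. The slope with LPS minus that without agent differed at 6 hr in Cd79a (0.34), Cd22 (0.29) and Cd72 (0.25), and at 24 hr in Cd79a (0.31), Cd22 (0.25) and Cd72 (0.30).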

How the results depend on the processing

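Recounts of the members called under other settings stayed within 1.5 times of the reported count in 834 cases and left it in 84, and the calls at 6 hr from 0 to 100 and 0 to 1050 cGy and the slopes up to 120 hr were unchanged in all settings run. The mouse number as a replicate block, though the numbers were not taken to pair the mice, gave 4 members at 100 cGy and 168 hr; in the small treatment set it gave 5, 4 and 5 at 150 cGy without agent, with GCSF and with LPS, 3 for LPS at 0 cGy and 1 for the LPS difference at 600 cGy. With only the compared groups in the fit, 4 members were called at 100 cGy and 24 hr, 5 at 100 cGy and 168 hr, 2 at 1050 cGy and 24 hr, 0 between 1050 and 100 cGy at 24 hr, and 1 for the change of the 100 cGy effect. The same fit gave 5 for the LPS slope and 5 for its difference at 6 hr, 5 for GCSF at 0 cGy and 24 hr, 4 for the sex difference at 6 hr, and 0, 0, 4 and 5 for 150 and 600 cGy without agent and 150 cGy with GCSF and LPS. Counts over all genes moved under other settings as well, with ranges given below. The member counts of this section stand without a share of all genes and are no result about the members.

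Array weights gave 4, 2 and 5 at 100 cGy at 24, 72 and 168 hr, 5 for the slope change, 1 for the change of the 100 cGy effect, 5 for the LPS slope and 5 for its difference at 6 hr, 2 for the GCSF difference at 6 hr, 4 for GCSF at 0 cGy and 24 hr, 2 for the sex difference of slopes at 6 hr, 4, 4 and 5 at 150 cGy without agent, with GCSF and with LPS, and 3 for LPS at 0 cGy. Quantile normalisation gave 2 at 100 cGy and 72 hr, 1 at 168 hr, 1 for the change of that effect and 1 for the sex difference, median centring 0 at 100 cGy and 72 hr, the mean of probe sets 1 at 150 cGy with GCSF, and log dose 5 for the LPS difference at 6 hr. The cause of these moves was not tested. Over all settings, genes called lower at 150 cGy in the small treatment set ran from 0 to 813 without agent, beside 132. With GCSF they ran from 26 to 314, beside 100, and with LPS from 74 to 538, beside 297. The LPS slope difference at 6 hr called 212 to 1547 genes, beside 799.

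Leaving out arrays with Alb at 10 or more gave 0 members at 100 cGy and 24 hr, 4 at 168 hr, and 5 for the slope change, which turned to -0.64 for Cd79a, -0.69 for Cd79b, -0.55 for Ms4a1, -0.69 for Cd22 and -0.60 for Cd72. By construction, the 168 hr slope then covers 0 to 300 cGy and the 6 hr slope 0 to 1050 cGy. Over doses up to 300 cGy at both times, added after seeing the data, 0 members were called, with or without those arrays. Also added, leaving out the untreated 0 cGy mouse gave 5, 4 and 5 at 150 cGy without agent, with GCSF and with LPS and 4 for LPS at 0 cGy, and leaving out 1 male LPS mouse at 200 cGy and 24 hr or the 9 arrays of the smaller run of the sex and treatment set gave 5 for the LPS slope difference at 6 hr.

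Leaving out 1 mouse per group gave, at 100 cGy, 0 to 1 at 24 hr, 0 to 1 at 72 hr and 0 to 2 at 168 hr, between 1050 and 100 cGy 1 to 5 at 24 hr and 3 to 5 at 168 hr, 3 to 5 for the 168 hr slope, 0 to 2 for the sex difference at 6 hr, 0 to 5 and 1 to 5 at 150 and 600 cGy without agent in the small set, 1 to 4 at 150 cGy with GCSF and 0 to 4 for LPS at 0 cGy. Counts over all genes moved by over 1.5 times in 176 recounts and less in 742. Genes called lower at 100 cGy ran from 49 to 981 beside 144 at 24 hr. They ran from 88 to 2068 beside 539 at 72 hr and from 55 to 3232 beside 1234 at 168 hr. Wider still, GCSF at 0 cGy and 24 hr called 14 to 4776 genes beside 68. The GCSF slope difference at 6 hr called 0 to 691 beside 2. For the sex difference at 0 cGy and 6 hr the range was 1366 to 7872 beside 3446, and for that of slopes at 6 hr 529 to 6188 beside 1280. Quantile normalisation moved the lower share of the calls at 100 cGy and 168 hr to 46.8%, beside 66.6%, and median centring that at 72 hr to 13.1%, beside 31.5%. Levels near the dim limit, as for Cd79b from 600 cGy and Cd72 at 1050 cGy at 6 hr, may not show a further fall, which was not tested.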
